A study of Homo sapiens with 30 samples.

Results

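CXCL9, CXCL10 and CXCL11, the 3 classical ligands of the chemokine receptor CXCR3, were followed in 2 human glioblastoma cell lines under prolonged interferon gamma (IFN-γ). They were taken by symbol from the deposited tables, in which they are 3 of 61471 genes. U87-MG and U251-MG are established lines grown from glioblastoma, a malignant brain tumor, and both are labelled WT. Each line had an Untreated group that received no IFN-γ, and D3, D14 and D28 groups given human IFN-γ for 3, 14 or 28 days. In a washout group, D28WO, IFN-γ was given for 14 days and removed for the rest of the 28. All groups shared the same medium with serum and antibiotics. The labels state 1 µg/mL of IFN-γ and date the untreated samples to day 3, whereas the methods of the study give a lower dose and an untreated sample from the start. Each line stands for 1 tumor, and both are on the register of commonly misidentified lines and were not re-authenticated by the study.

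The 3 ligands are small secreted proteins that draw activated T cells and natural killer cells, which carry CXCR3. IFN-γ binds IFNGR1 and IFNGR2, the kinases JAK1 and JAK2 are activated, and the factors they switch on bind GAS sequences, while IRF1 and complexes with STAT2 and IRF9 bind interferon-stimulated response elements (ISRE). NF-κB acts with these factors at CXCL10 and CXCL11 promoters, and SOCS1 damps the signal. Type I interferons can also switch on CXCL10 and CXCL11, while CXCL9 depends more strictly on IFN-γ.

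Values are in TPM, a transcript measure whose values are scaled for gene length and for the total of a library, and differences are on the log2(TPM + 1) scale from limma with Benjamini-Hochberg adjustment, within a line only. Calls required an adjusted p below 0.05 together with a log2 difference beyond 1 in either direction. U251 had 15 libraries, 3 in a group, and U87 had 13, with 2 at D3 and 2 at D14. A library listed 24223 to 30246 genes above 0, and TPM does not keep the read count of a library, so no upper limit was computed for a gene listed at 0. None of 8 housekeeping genes was at 0 in any library, and the lowest value among them was 48.1 TPM, but their median lay 0.71 below Untreated at D28WO of U87 and 0.57 below at D28WO of U251. In bulk RNA, fewer cells with a transcript and less transcript in each cell cannot be told apart. The U251 libraries held the glial markers GFAP and SOX2, whereas in U87 SOX2 averaged 0.0568 to 0.219 TPM over the groups and GFAP 4.84 to 14.2 TPM. OLIG2 ran the other way, at group means of 4.68 to 26.7 TPM in U87 and at most 1.10 TPM in U251. VIM and CD44 were high in both lines, at means of 1307 and 686 TPM in Untreated U87 and 1141 and 840 TPM in Untreated U251. Of 10 leukocyte markers, the lymphocyte genes CD3E and MS4A1 averaged at most 0.183 TPM in any group. CD14, a monocyte gene, was called higher than Untreated in U251 at all 4 times, at means of 0.569 TPM in Untreated and 2.16 to 4.51 TPM in the treated groups, and NKG7, a cytotoxic cell gene, was called in U87 at D3 and D14, at means of 1.14 and 1.64 TPM. With quantile normalization the CD14 calls at D14 and D28 were lost (0.73 and 0.91, adjusted p = 0.0734 and 0.0158), as was the NKG7 call at D3 (adjusted p = 0.0591). The summed leukocyte markers ranged from 4.03 to 4.86 TPM in Untreated U251 libraries and from 5.07 to 13.1 TPM in treated ones, those of U87 ranged from 13.3 to 62.0 TPM over all libraries, and their part in the ligand levels was not tested. The macrophage receptor CSF1R averaged 16.9 to 55.2 TPM in U87 and was lowest at D28WO, one of the groups with the most ligand. Both U87 libraries at D14, labelled as exposed to IFN-γ for 14 days, listed all 3 ligands at 0, and the U87 libraries at D28WO, labelled as without IFN-γ for the last 14 days, held as much ligand as those at D28. The ligand values of these libraries go against what the labels describe, and whether the columns carry the right names was not tested. Other genes of U87 went both ways from D28 to D28WO. The receptor gene ACKR3 averaged 13.8 and then 4.17 TPM and the chemokine gene CX3CL1 9.13 and then 2.68 TPM. Of 9 IFN-γ signaling genes tested, 0 were called in either direction. Leaving the D14 or the D28WO libraries out of the fit, a check added after the levels were seen, changed no call of the ligands in the remaining comparisons.

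The 3 genes lie side by side on the minus strand of chromosome 4 (GRCh38, GENCODE release 44), within 40.1 kb. CXCL9 spans chr4:76001275-76007509, CXCL10 spans chr4:76021118-76023497 and CXCL11 spans chr4:76033682-76041415. Gaps of 13.6 kb and 10.2 kb separate them. ART3, an ADP-ribosyltransferase gene, runs across CXCL10 and CXCL11 on the opposite strand, and the antisense RNA gene SDAD1-AS1 overlaps one end of CXCL9. Neither shares an annotated exon base with the ligands. Because the strand setting of the counting is not stated, reads from transcripts of the opposite strand that run past annotated exons could not be told apart.

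The 250 bases before the start site of each gene are shown because the factors that IFN-γ activates bind there (RefSeq, GRCh38.p14, minus strand, 5′ to 3′, all 3 genes matched). Capitals mark matches to 6 motifs searched on both strands, namely GAS (TTCNNNGAA), ISRE (GAAA, any 2 bases, GAAA), the 10-base κB motif, AP-1 (TGANTCA), the CCAAT box and the TATA box (TATAAA). The windows are chr4:76007510-76007759 for CXCL9, chr4:76023498-76023747 for CXCL10 and chr4:76036071-76036320 for CXCL11, where the RefSeq start lies inside the longer GENCODE gene.
CXCL9: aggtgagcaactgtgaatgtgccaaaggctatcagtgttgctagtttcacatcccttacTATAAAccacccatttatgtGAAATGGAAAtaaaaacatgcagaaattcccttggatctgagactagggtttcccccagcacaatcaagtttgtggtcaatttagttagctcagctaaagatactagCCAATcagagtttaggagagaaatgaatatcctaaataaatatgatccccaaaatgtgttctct
CXCL10: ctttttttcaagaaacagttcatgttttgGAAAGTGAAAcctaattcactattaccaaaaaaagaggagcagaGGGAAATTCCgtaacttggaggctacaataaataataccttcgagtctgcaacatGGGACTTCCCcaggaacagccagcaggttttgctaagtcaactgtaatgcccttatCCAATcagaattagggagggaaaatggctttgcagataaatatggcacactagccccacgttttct
CXCL11: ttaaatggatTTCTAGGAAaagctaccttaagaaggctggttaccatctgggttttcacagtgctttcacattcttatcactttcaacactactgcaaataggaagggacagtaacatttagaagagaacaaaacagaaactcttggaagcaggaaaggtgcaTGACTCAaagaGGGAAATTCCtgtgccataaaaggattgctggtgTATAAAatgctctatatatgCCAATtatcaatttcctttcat
The CXCL9 window held an ISRE match from base -171 to -162 relative to the start site, CXCL10 held one from -221 to -212, and CXCL11 held none. Of 27305 human promoters of the same length, 3.07% held the ISRE letters. The κB motif matched at 2 places in CXCL10, from -177 to -168 and from -122 to -113, and once in CXCL11, from -76 to -67, against 5.05% of promoters. CXCL11 alone of the 3 held the GAS letters, from -240 to -232, which 6.78% of promoters hold, and an AP-1 match from -87 to -81, which 6.60% hold. All 3 windows held a CCAAT box, as did 33.0% of promoters. These are matches of letters, not measured binding.

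In U251 all 3 ligands were near 0 without IFN-γ, high at D3, lower at D14, highest at D28 and lower again at D28WO. CXCL10 stood at 0, 0 and 0.608 TPM in the Untreated libraries, and at 178, 287 and 252 TPM at D3. It fell to 35.5, 36.4 and 36.5 TPM at D14, reached 492, 498 and 521 TPM at D28, and stood at 80.5, 101 and 86.3 TPM at D28WO. No 2 of the 5 groups overlapped, as for 1.09% of all genes tested. CXCL11 stood at 1.09, 0.189 and 0.227 TPM in Untreated, at 199, 292 and 248 TPM at D3, and at 19.4, 27.2 and 27.7 TPM at D14. At D28 it reached 432, 418 and 493 TPM, and at D28WO it was at 28.9, 36.2 and 29.4 TPM. Every D28WO library of CXCL11 lay above every D14 library, by little, as did those of 16.6% of genes. CXCL9 stood at 0.0829, 0 and 0 TPM in Untreated, at 61.1, 128 and 95.2 TPM at D3, and at only 0.358, 0.392 and 0.894 TPM at D14. It reached 186, 174 and 203 TPM at D28 and stood at 14.2, 18.2 and 15.9 TPM at D28WO. CXCL9 at D14 was thus close to its Untreated level, while the other ligands kept at least 19.4 TPM.

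Against Untreated, the 3 ligands were called higher in U251 at D3, where 9.72% of 23667 genes tested were called higher, at D28 (11.9% of all genes) and at D28WO (4.07%). At D28 the log2 difference was 8.75 ± 0.183 (SE, n = 3 against 3) for CXCL10, 8.27 ± 0.209 for CXCL11 and 7.52 ± 0.220 for CXCL9 (limma, adjusted p = 4.07e-13, 2.17e-12 and 9.68e-12). The medians of all genes tested moved by 0.13, 0.096, 0.16 and 0.015 over the 4 treated groups in the order D3, D14, D28, D28WO. At D14, when 4.72% of genes were called higher, CXCL10 (4.99) and CXCL11 (4.13) were called (limma, adjusted p = 4.14e-10 and 1.1e-08), and CXCL9 was not (0.57, adjusted p = 0.081). Because the reference is near 0, this last difference depends on the pseudocount, and at 0.1 instead it was 2.31 and called (adjusted p = 0.000275).

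The fall from D3 to D14 in U251 took in all 3 ligands, when 3.29% of genes were called lower. Mean CXCL9 was 173-fold lower at D14, with a log2 difference of -5.91 ± 0.220 (limma, adjusted p = 9.99e-10). Mean CXCL11 was 9.96-fold lower (-3.26 ± 0.209, limma, adjusted p = 1.45e-07) and mean CXCL10 6.62-fold lower (-2.67 ± 0.183, limma, adjusted p = 2.87e-07). From D14 to D28 the 3 were called higher again, by 6.94, 4.14 and 3.77 in the same order, when 4.23% of genes were. The 28-day level exceeded the 3-day level by 1.10 for CXCL10 and 1.03 for CXCL9, both called (limma, adjusted p = 0.00178 and 0.00763), and by 0.87 for CXCL11, under the fold limit (adjusted p = 0.0141), against 2.76% of all genes called higher and 8.72% higher by the adjusted p alone. Both calls rest on the lowest D3 library, replicate 1, without which the differences were 0.90 and 0.75, under the limit. The call for CXCL9 was also lost without D28 replicate 3, at 0.976, and CXCL11 passed the limit without D3 replicate 2, at 1.004.

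After 14 days without IFN-γ the 3 ligands of U251 stood far below their level under continued exposure, when 8.14% of genes were called lower. Mean CXCL11 was 14.2-fold lower at D28WO than at D28 (-3.79 ± 0.209, limma, adjusted p = 5.91e-08), mean CXCL9 11.6-fold lower (-3.46 ± 0.220, adjusted p = 1.64e-07) and mean CXCL10 5.64-fold lower (-2.49 ± 0.183, adjusted p = 5.14e-07). The level was still above Untreated, with log2 differences of 6.26 for CXCL10, 4.48 for CXCL11 and 4.05 for CXCL9. Compared with D14, from which the washout started, CXCL9 was higher at D28WO by 3.48 and CXCL10 by 1.28 (limma, adjusted p = 1.09e-07 and 0.000157), and CXCL11 by 0.34 was not called (adjusted p = 0.258), against 1.78% of genes called higher.

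**Figure D1:**
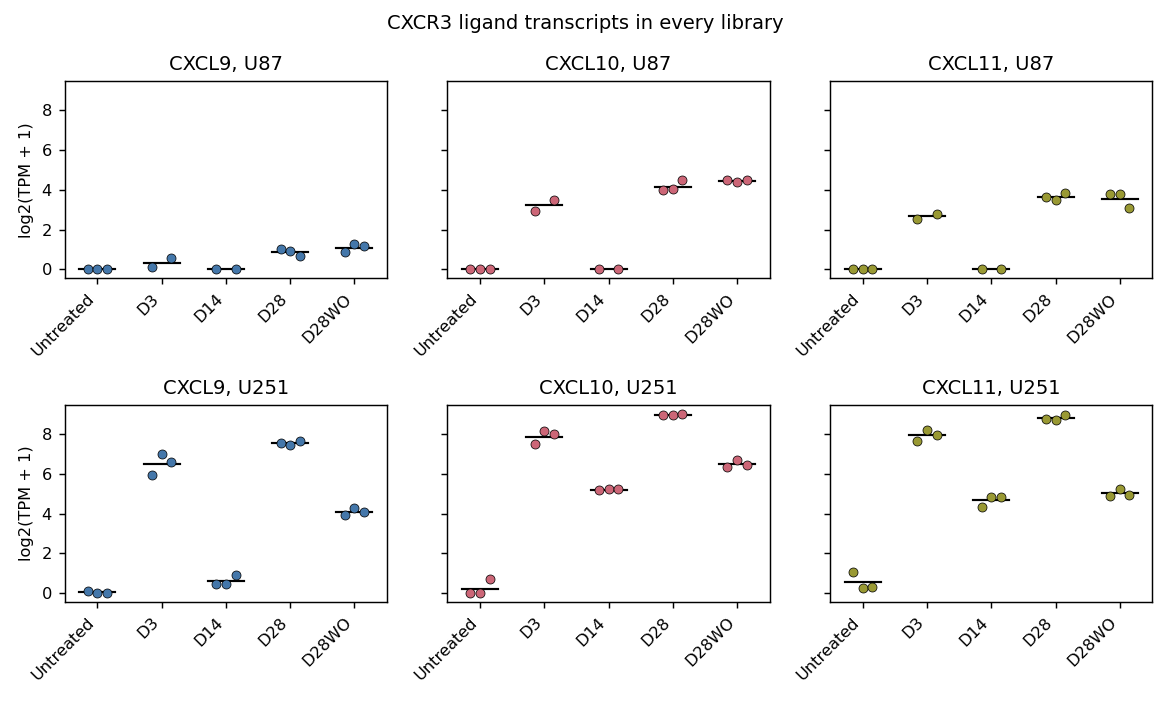
Levels of CXCL9, CXCL10 and CXCL11 in each library on the log2(TPM + 1) scale (y axis), by group (x axis), with U87 above and U251 below. Points are libraries and bars are group means, and the points at 0 in Untreated and D14 of U87 are libraries in which the gene is listed at 0.

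In U87 the ligands reached far lower TPM and followed another course. All 3 were listed at 0 in each of the 3 Untreated and both D14 libraries, so no fold is given against these groups. CXCL10 stood at 6.59 and 10.4 TPM at D3, at 14.8, 15.3 and 21.4 TPM at D28, and at 21.9, 20.1 and 21.7 TPM at D28WO. CXCL11 stood at 4.78 and 5.99 TPM at D3, at 11.4, 10.4 and 13.4 TPM at D28, and at 12.9, 12.7 and 7.44 TPM at D28WO. The D28 and D28WO libraries overlapped for both genes and lay above those of D3, as did the D28 libraries of 10.8% of genes and the D28WO libraries of 24.4%. CXCL9 stood at 0.0951 and 0.471 TPM at D3, at 1.07, 0.878 and 0.587 TPM at D28, and at 0.805, 1.40 and 1.23 TPM at D28WO. Its mean over all 13 libraries, 0.503 TPM, only just reached the limit of 0.5 TPM for testing. All 3 ligands passed that limit through D3, D28 and D28WO, so their calls against the groups at 0 are not independent of it.

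Against Untreated, CXCL10 and CXCL11 were called higher in U87 at D3 (limma, adjusted p = 5.22e-06 and 6.07e-05), when 5.85% of 22918 genes were, and at D28 (adjusted p = 1.99e-07 and 1.27e-06), when 6.77% were. At D28WO, when 12.8% of genes were called higher, CXCL10 and CXCL11 were called too. CXCL9 had its one call against Untreated there (limma, adjusted p = 0.00353), in the group that did most to carry it over the limit for testing, and that call was lost with quantile normalization. At D28 CXCL9 had an adjusted p of 0.0227 (limma) with a fitted difference under the limit (17.2% of genes were higher by the adjusted p alone), and it was called with the smaller pseudocount of 0.1. The medians of all genes tested moved by 0.20, 0.15, 0.19 and 0.25 in that order of groups. From D3 to D14 CXCL10 and CXCL11 were called lower (limma, adjusted p = 2.04e-05 and 0.00024), as were 2.05% of genes, with the D14 libraries at 0. Against D14, the 2 were called higher at D28 and all 3 at D28WO, when 1.78% and 6.3% of genes were. The CXCL9 call against D14 was lost with quantile normalization too (0.91). At D14 itself, when 1.89% of genes were called higher than Untreated, limma called 0 of 3, with 0 at an unadjusted p under 0.05. In a limma fit of D3 and D14 alone, with 2 libraries each, the adjusted p was 0.0841 and 0.0749.

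Removal of IFN-γ left no called difference in the 3 ligands of U87. From D28 to D28WO the log2 difference was 0.31 ± 0.217 for CXCL10, 0.21 ± 0.241 for CXCL9 and -0.11 ± 0.241 for CXCL11 (limma, adjusted p = 0.375, 0.594 and 0.799), with 0 of 3 at an unadjusted p under 0.05, while 3.11% of genes were called higher and 2.42% lower. The sign for CXCL11 rested on D28WO replicate 3, at 7.44 TPM, and was positive without it (0.12). Against D3, CXCL10 was higher at D28WO by 1.25 ± 0.243 (limma, adjusted p = 0.00853), when 1.89% of genes were called higher, but by 0.956 and uncalled without D3 replicate 2. CXCL11 was higher by 0.88 and CXCL9 by 0.75, not called (adjusted p = 0.0587 and 0.106). Without D28WO replicate 3, CXCL11 was called, at 1.12. From D3 to D28 limma called 0 of 3 ligands, with differences of 0.95 for CXCL10, 1.00 for CXCL11 and 0.53 for CXCL9 (adjusted p = 0.22, 0.248 and 0.611), of which 2 had an unadjusted p under 0.05, and 0.0131% of genes were called higher.

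Ordered by mean level, CXCL10 in U251 ran Untreated, D14, D28WO, D3 and D28, and each neighbor in that order was called different from the next. With a pseudocount of 0.1 the calls from D14 to D28WO, from D28WO to D3 and from D3 to D28 were lost, and the last was also lost without D3 replicate 1. From D3 to D28WO all 3 ligands were called lower, by -1.39 for CXCL10, -2.43 for CXCL9 and -2.92 for CXCL11 (limma, adjusted p = 0.000163, 8.55e-06 and 1.45e-06), when 4% of genes were. Their D28WO libraries all lay below those of D3, as for 22% of genes. CXCL9 followed the same order, with Untreated and D14 not called apart. For CXCL11 the pairs D14 and D28WO, and D3 and D28, were not called apart. In U87 the order of CXCL10 and CXCL9 was Untreated and D14 together at 0, then D3, D28 and D28WO, and for CXCL11 D28 stood above D28WO. For CXCL10 and CXCL11 the step from D14 to D3 was the one called, and for CXCL9 no neighbors were.

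The proportions of the 3 ligands changed over time in U251. TPM is scaled for length, so levels of different genes may be set side by side, and low values in these tables fell with exon length. CXCL10 made up 41.2% ± 1.01 (SD, n = 3) of the summed ligand TPM at D3 and 44.3% ± 1.44 at D28, against 59.1% ± 4.52 at D14 and 65.3% ± 0.310 at D28WO. CXCL11 made up 42.8% ± 2.31 at D3, 40.0% ± 4.30 at D14 and 39.3% ± 1.13 at D28, but 23.0% ± 0.582 at D28WO. The share of CXCL9 was 16.0% ± 2.10 at D3 and 16.4% ± 0.426 at D28, and dropped to 0.878% ± 0.430 at D14 and 11.8% ± 0.296 at D28WO. At D14 the mixture was thus nearly free of CXCL9, and at D28WO it was richest in CXCL10 and poorest in CXCL11.

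Each ratio between ligands was tested over the treated groups with an exact permutation test of the one-way F statistic, 6 tests in all with Benjamini-Hochberg adjustment. In U251 the log2 ratio of CXCL10 to CXCL11 averaged -0.054, 0.54, 0.17 and 1.48 over D3, D14, D28 and D28WO, and differed between groups (exact permutation, n = 12 libraries, p = 6.49e-05, the smallest that this design can give, adjusted p = 0.00039). The log2 ratio of CXCL10 to CXCL9 averaged 1.36, 4.60, 1.42 and 2.40 in the same order (exact permutation, p = 0.00052, adjusted p = 0.00104). That of CXCL11 to CXCL9 averaged 1.41, 4.06, 1.25 and 0.92 (exact permutation, p = 0.00026, adjusted p = 0.000779). For each ratio the D3 and D28 means were the closest pair, and single pairs of groups were not tested. For CXCL11 to CXCL9 the D28WO mean, 0.92, also lay near the D28 mean, 1.25.

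In U87 CXCL10 made up the largest share, 59.6% ± 3.04 (SD, n = 2) of the summed ligand TPM at D3, 57.4% ± 3.05 (n = 3) at D28 and 63.9% ± 6.68 (n = 3) at D28WO. CXCL11 made up 38.6%, 39.6% and 32.7% and CXCL9 1.81%, 2.96% and 3.46% of it. No ratio test passed the threshold (exact permutation tests, n = 8, adjusted p = 0.403, 0.403 and 0.446). The largest shift between group means was 0.51 on the log2 scale.

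**Figure D2:**
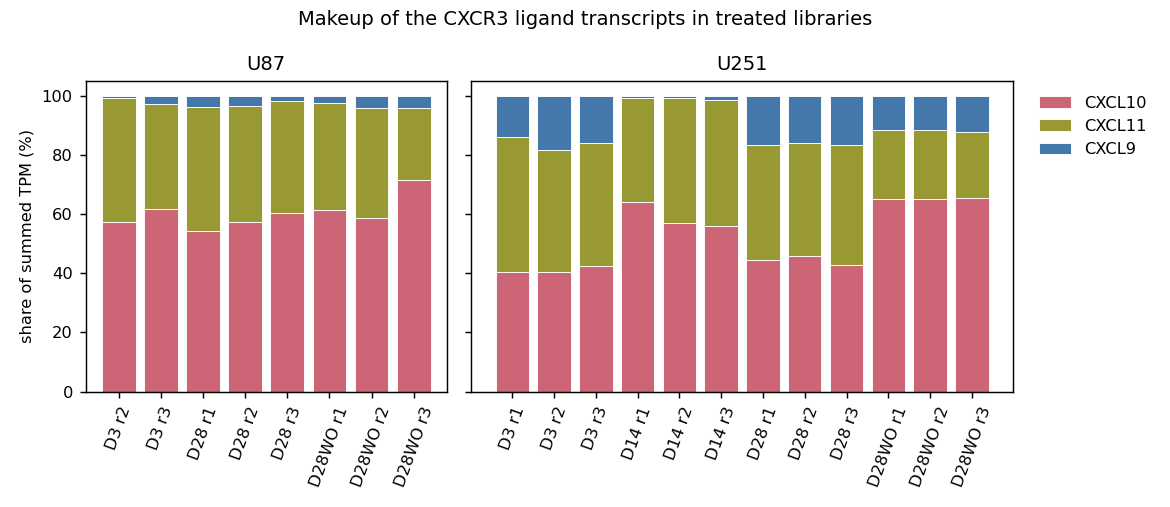
Percent of the summed TPM of the 3 ligands (y axis) that each ligand held in each treated library (x axis, group and replicate), for U87 and U251; the U87 libraries at D14, with all ligands at 0, are left out. CXCL9 nearly vanishes from the U251 libraries at D14, and the share of CXCL10 is highest at D28WO.

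CXCR3 itself was listed at 0 in every library of both lines, so a transcript for the receptor of these ligands was not seen in either line. Transcripts of other proteins that bind or clip the ligands were measured too. DPP4, a protease that trims CXCL9, CXCL10 and CXCL11 and weakens them, was called higher in U87 at D3 by 1.22 and at D28 by 1.24 (limma, adjusted p = 1.15e-05 and 2.81e-06), from 31.0 to 73.5 and 74.4 TPM. In U251 DPP4 was called higher at D28 by 1.30 (adjusted p = 0.000117), a call lost with quantile normalization (0.995, adjusted p = 0.00168), and fell by 1.66 from D28 to D28WO (adjusted p = 3.07e-05). ACKR3, an atypical receptor that takes up CXCL11, was called higher in U251 at D3 by 1.29 (adjusted p = 9.95e-05) and in U87 at D28 by 1.81 (adjusted p = 0.0023). ACKR1 was listed at 0 in all Untreated libraries and averaged at most 3.54 TPM in any group. It was called higher at D28 in both lines, at means of 2.71 TPM in U87 and 3.54 TPM in U251. The D28 group did most to carry it over the limit of 0.5 TPM for testing. From D28 to D28WO in U87, 2 of these 3 genes were called lower and 3 were lower by the adjusted p alone, when 2.42% of genes were called lower. ACKR3 went from 13.8 to 4.17 TPM, ACKR1 from 2.71 to 0.0731 TPM and DPP4 from 74.4 to 49.7 TPM. Of the 3 further chemokines that can bind CXCR3, namely PF4, PF4V1 and CXCL13, none reached the mean needed for testing in either line.

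The signaling genes that lead to the ligands were set beside them. In U87, 5 of 9 IFN-γ signaling genes tested were called higher at D3, 6 at D28 and 6 at D28WO. At D14 limma called 0, with 4 at an unadjusted p under 0.05, of which STAT2 had the adjusted p under the limit, at a difference of 0.50 (adjusted p = 0.01). IRF1, a transcription factor, stood at 136, 130 and 134 TPM in Untreated, 445 and 450 TPM at D3, and 134 and 110 TPM at D14. It stood at 539, 457 and 443 TPM at D28 and 527, 545 and 457 TPM at D28WO. IRF1 was close to its Untreated level in the D14 libraries that listed the ligands at 0, with a difference of -0.13 (limma, adjusted p = 0.488). JAK1, the kinase bound to IFNGR1, had no called difference.

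In U251 IRF1, IRF9 and STAT2 were called higher than Untreated at D14 and D28WO as well as at D3 and D28. Of 9 genes tested, 6 were called higher at D3, D28 and D28WO and 5 at D14, and the 5 at D14 became 3 with median-ratio size factors, when IRF1 (0.99) and STAT2 (0.93) lay under the fold limit; STAT2 did so with quantile normalization too (0.97). IRF1 stood at 137, 142 and 145 TPM in Untreated, 514, 721 and 533 TPM at D3, and 288, 321 and 292 TPM at D14. It stood at 577, 559 and 674 TPM at D28 and 609, 663 and 588 TPM at D28WO. From D3 to D14 IRF9 differed by -0.19 (limma, adjusted p = 0.0511), not called, and STAT2 by -0.49 and IRF1 by -0.95, under the fold limit. JAK2 and SOCS1, named after their values were seen, fell by 1.98 and 1.87 between these groups (adjusted p = 6.17e-06 and 6.33e-07). At D14 JAK2 stood at 14.0, 15.8 and 13.4 TPM, near the 8.81, 14.4 and 6.53 TPM of Untreated, against 54.8, 63.4 and 60.4 TPM at D3.

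From D28 to D28WO, when the U251 ligands fell, limma called 0 of the 9 signaling genes in either direction, with 5 at an unadjusted p under 0.05. IRF1 differed by 0.04, IRF9 by 0.16 and STAT2 by 0.19 (limma, adjusted p = 0.812, 0.0788 and 0.0473). SOCS1, the feedback inhibitor of JAK kinases, averaged 2.82 TPM in Untreated and 9.18 at D14, against 35.8 at D3, 45.8 at D28 and 65.7 at D28WO. Its highest group was thus the washout. USP18, which dampens type I interferon signaling, was called higher in U251 at all 4 times, by 1.41, 1.43, 1.93 and 1.73, and in U87 at none. Of 7 feedback genes, 2 were called higher in U251 at each time, and in U87 1 at D14, PTPN6, at a mean of 2.10 TPM, and 0 at the other times (limma, with 5, 4 and 3 of 7 at an unadjusted p under 0.05 at D3, D28 and D28WO). The PTPN6 call was lost under quantile and median-ratio scaling. SOCS1 in U87 differed by 0.89, 0.95 and 0.90 at D3, D28 and D28WO, past the limit on the adjusted p (limma, 0.00414, 0.000937 and 0.000445) but under the fold limit.

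**Figure D3:**
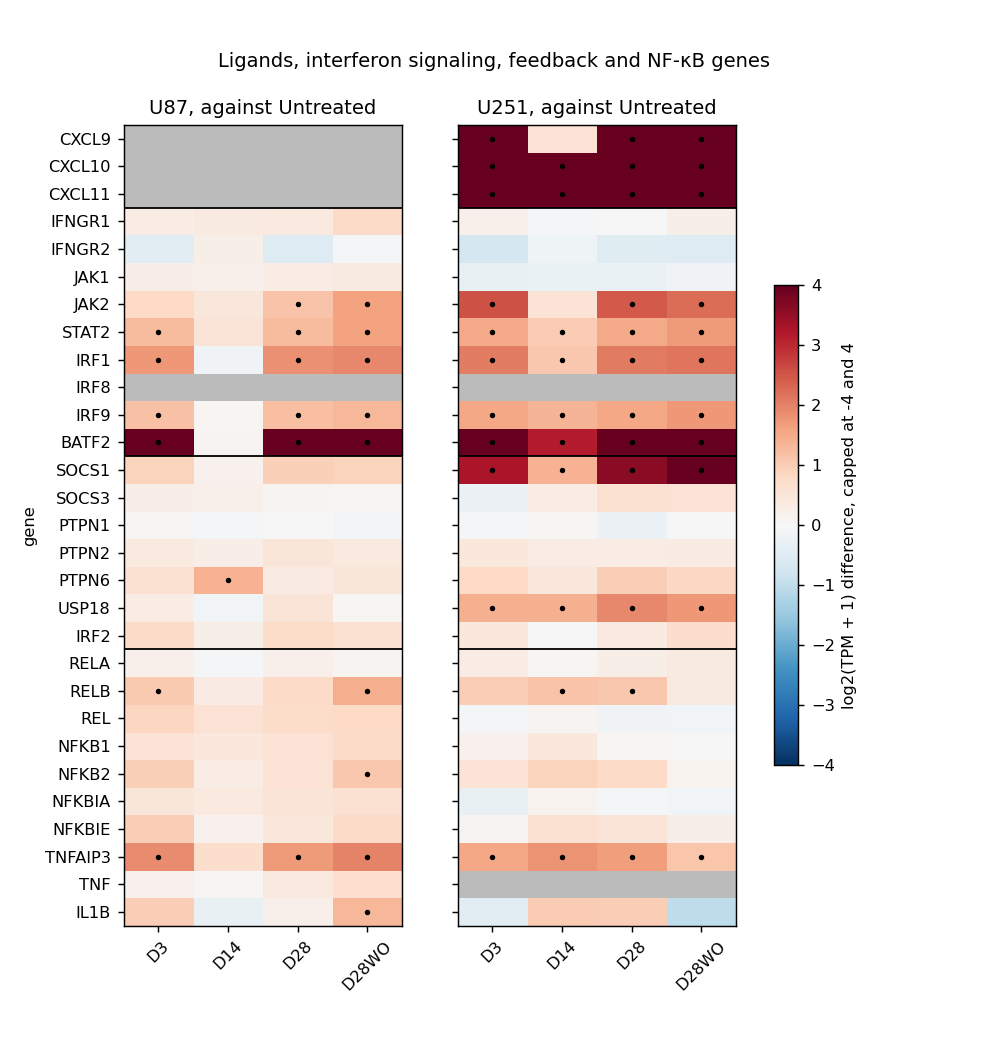
Differences from Untreated on the log2(TPM + 1) scale (color, capped at -4 and 4) for the ligands and the genes of IFN-γ signaling, feedback and NF-κB, each row a gene and each column a group, with U87 left and U251 right. Black dots mark called genes, and gray marks genes not tested or listed at 0 in all Untreated libraries; IRF1 and IRF9 are called higher at D14 and D28WO in U251.

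In U87, 2 of 10 NF-κB genes were called higher at D3, 0 at D14 (limma, 7 at an unadjusted p under 0.05), 1 at D28 and 4 at D28WO, and in U251 1, 2, 2 and 1 of 9, where the first stands beside 9.72% of all genes at D3. With median-ratio size factors 1 was called in U87 at D3 and 1 in U251 at D28. RELA, the main activating subunit, was called at no time in either line. TNFAIP3, a feedback target of NF-κB named after its values were seen, was called higher in U251 at all 4 times, by 1.54, 1.79, 1.66 and 1.10. RELB averaged 40.7 TPM in Untreated U251 and 81.0, 90.9, 87.3 and 52.4 TPM in the treated groups in time order, and differed by -0.73 from D28 to D28WO (limma, adjusted p = 0.00039), under the fold limit. IL1B was the most abundant gene of the list in U87, rose by 1.34 at D28WO (limma, adjusted p = 2.2e-06), and differed by 0.98 at D3 and 0.19 at D28.

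Interferon genes were measured as a second source of the signal. IFNG was listed at 0 in every library. IFNB1, the type I interferon gene, was listed at 0 in all 13 U87 libraries and in the Untreated U251 libraries, and stood at 2.21, 1.09 and 2.11 TPM at D3 in U251. It stood at 3.81, 3.47 and 3.24 TPM at D14, 6.26, 6.77 and 8.59 TPM at D28, and 2.05, 1.66 and 0.927 TPM at D28WO. IFNB1 was called higher than Untreated at each time (limma, adjusted p = 0.000232, 2.57e-05, 2.48e-07 and 0.000827) and fell by 1.71 from D28 to D28WO (adjusted p = 0.000126). Like the ligands it was highest at D28, but unlike them it did not fall at D14, at 0.71 above D3 (adjusted p = 0.0417). Its part in the ligand levels was not tested.

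Other chemokines showed which parts of these courses were shared. The ELR CXC chemokines, which draw neutrophils through CXCR1 and CXCR2, were all called higher in U87 at D3, D28 and D28WO, 5 of 5 tested. At D14 of U87, where the CXCR3 ligands were at 0, 1 of 5 was called higher, 4 had an unadjusted p under 0.05, and the list summed to 333 TPM against 163 TPM in Untreated. In U251 3 of 3 tested were called at D14 and D28, and 1 at D3 and D28WO. CXCL8, the most abundant, stood at 27.9, 34.0 and 32.9 TPM in Untreated U251, 45.9, 55.2 and 59.8 TPM at D3, and 143, 172 and 153 TPM at D14. From D3 to D14, when the 3 CXCR3 ligands fell, CXCL8, CXCL2 and CXCL3 rose in U251 by 1.53, 1.85 and 1.36 (limma, adjusted p = 4.44e-07, 2.37e-08 and 4.34e-07). From D28 to D28WO all 3 fell, by 2.17, 1.64 and 1.13. For these 3 genes the direction of both steps held under quantile and median-ratio scaling.

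CC chemokines followed more than one course. CCL2, which draws monocytes, was higher in U251 at D14 than at D3 by 1.48 (limma, adjusted p = 4.53e-05), as was CCL26, an eosinophil chemokine, by 1.16 (adjusted p = 0.00012). CCL8, another monocyte chemokine, was listed at 0 in Untreated, stood at 2.83, 12.5 and 8.50 TPM at D3, at 0.610, 0 and 0 TPM at D14, at 45.9, 46.8 and 54.0 TPM at D28, and at 0.393, 0 and 0 TPM at D28WO. Like CXCL9 it was near its Untreated level at D14, and unlike CXCL9 it was so at D28WO too. In U87, 6 of 8 CC chemokines tested were called higher at D3, 0 at D14 (limma, 2 at an unadjusted p under 0.05), 5 at D28 and 6 at D28WO, and in U251 2, 4, 5 and 1 of 6. At D28WO in U251, 2 were called lower than Untreated, CCL2 at a mean of 9.68 against 21.0 TPM and CCL26 at 11.8 against 29.2 TPM (-1.05 and -1.23, limma, adjusted p = 0.000553 and 4.79e-05). The share of all genes called lower there is not given, so this count is not set against it. From D28 to D28WO, 5 of 6 CC chemokines fell in U251, and in U87 4 of 8 rose and 1 fell.

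The summed TPM gives the scale. In U251 the CXCR3 ligands summed to 0.733 ± 0.501 TPM (SD, n = 3) in Untreated, 580.3 ± 136 at D3, 1139 ± 68.9 at D28, 61.4 ± 5.37 at D14 and 137 ± 16.6 at D28WO. The 7 ELR CXC chemokines summed to 65.5, 117, 355, 346 and 107 TPM and the 12 CC chemokines to 51.0, 61.5, 126, 209.5 and 26.4 TPM over Untreated, D3, D14, D28 and D28WO. In U87 the CXCR3 ligands were the smallest of these sets in every group, at most 35.6 TPM in a library, against 151 to 1084 TPM for the ELR CXC chemokines.

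**Figure D4:**
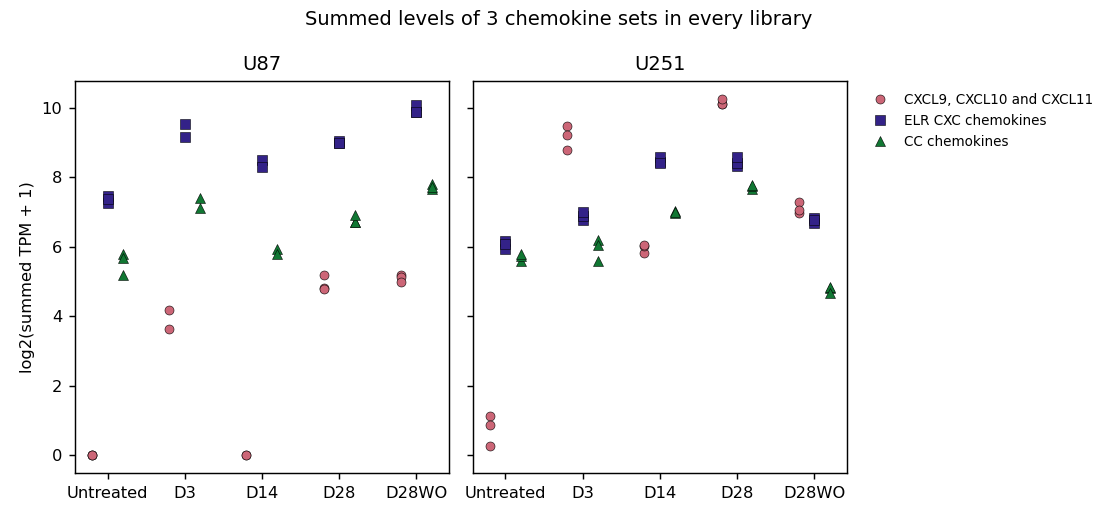
Summed TPM on the log2(TPM + 1) scale (y axis) of the 3 CXCR3 ligands, 7 ELR CXC chemokines and 12 CC chemokines in each library, by group (x axis), for U87 and U251. In U251 the CXCR3 ligands are the largest set at D3, D28 and D28WO and the smallest in Untreated and at D14, while in U87 they are the smallest throughout.

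Of the chromosome 4 neighbors, ART3 moved with the ligands in U251. It stood at 0.411, 2.02 and 1.22 TPM in Untreated, 10.8, 18.2 and 18.1 TPM at D3, and 2.51, 6.29 and 7.56 TPM at D14. It stood at 42.3, 43.6 and 43.3 TPM at D28 and 4.29, 13 and 11.1 TPM at D28WO. ART3 was called higher than Untreated at all 4 times, by 2.94, 1.51, 4.38 and 2.19 (limma, adjusted p = 5.07e-05, 0.016, 1.18e-06 and 0.000984), the call at D14 being lost with quantile normalization (1.22, adjusted p = 0.0622), and fell by 2.19 from D28 to D28WO (adjusted p = 0.00109). The order of its group means was that of CXCL10. In U87 ART3 averaged 0.230 to 1.64 TPM and was not called. SDAD1-AS1, which overlaps CXCL9, was at most 1.30 TPM in any library.

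NAAA, a lysosomal amidase gene, was called higher in U251 at D3, D14 and D28, by 1.44, 1.09 and 1.84 (limma, adjusted p = 0.000732, 0.0109 and 9.48e-05), and fell by 2.06 from D28 to D28WO (adjusted p = 7.71e-05), its call at D14 being lost with quantile normalization. The abundant genes SCARB2, NUP54 and SDAD1 were called in neither line against Untreated. SDAD1 passed the limit on the adjusted p in U251 at each of the 4 times, at 0.61, 0.32, 0.43 and 0.45 (limma, adjusted p = 0.000343, 0.0465, 0.00498 and 0.00521), and in U87 at D28WO, at 0.53 (adjusted p = 0.00255), all under the fold limit. PPEF2, a phosphatase gene, was called higher at D28, at a mean of 1.98 TPM against 0.325 TPM, but not with quantile normalization (0.59, adjusted p = 0.176). The D28 libraries did most to carry PPEF2 over the limit of 0.5 TPM for testing, so this call is not independent of that limit. The counts in U251 were 2, 2, 3 and 1 of 6 at D3, D14, D28 and D28WO, and with quantile normalization 0 at D14 and 2 at D28. In U87 limma called 0 of 5 neighbors tested at each of the 4 times, with 1, 1, 1 and 3 at an unadjusted p under 0.05.

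**Figure D5:**
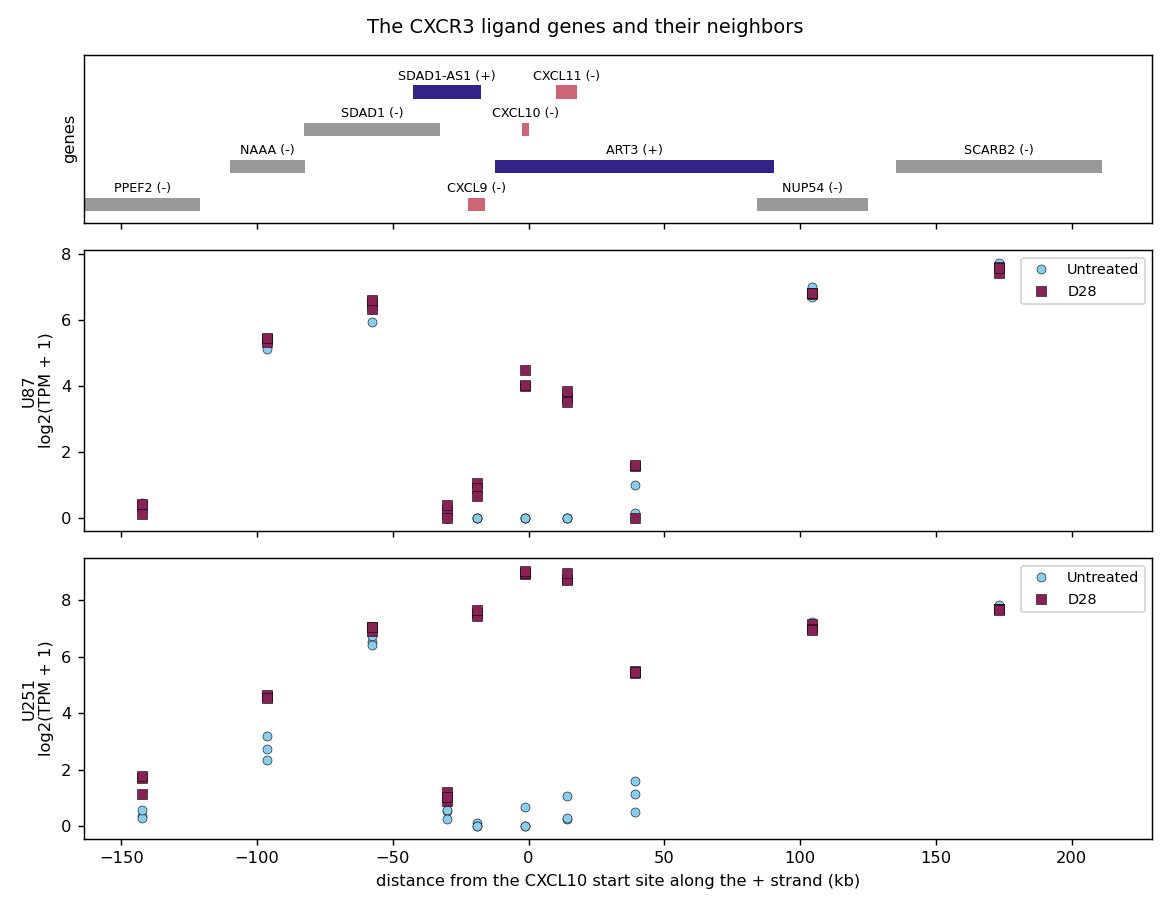
Map of the ligand genes (red) and their neighbors (blue for the plus strand, gray for the minus strand) by distance from the CXCL10 start site in kb (x axis), above the log2(TPM + 1) level of each gene in Untreated and D28 libraries of U87 and U251, plotted at the middle of the gene. In U251 the 3 ligands and ART3 part most between the groups, and NUP54 and SCARB2 overlap.

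The genes whose levels ran most like the mean log2(TPM + 1) of the 3 ligands differed between the lines. In U251 they were CTSS (r = 0.990), TNFSF13B (0.987), HLA-DQB1 (0.986), CD55 (0.985) and AP1AR (0.981), over 15 libraries and among 8369 genes that varied by at least 1 between group means. CTSS, a lysosomal protease of antigen processing, averaged 24.0, 197.6, 67.4, 282 and 136 TPM over Untreated, D3, D14, D28 and D28WO. HLA-DQB1 has near-identical relatives between which reads can be split. In U87 they were CCL8 (r = 0.993), SECTM1 (0.993), GJD3 (0.987), IDO1 (0.984) and FGFR2 (0.983), over 13 libraries and among 7813 genes. IDO1, the tryptophan-degrading enzyme, was listed at 0 in both D14 libraries of U87, as the ligands were, and its means at D3, D28 and D28WO were 83.6, 111 and 136 TPM. These correlations rest on 5 groups that share libraries and treatment, and are descriptions. Among the ligands themselves, CXCL10 and CXCL11 were the closest pair, with r = 0.991 in U87 and 0.975 in U251, against 0.880 to 0.910 for the pairs with CXCL9.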

How the data were processed

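RNA of U87 and U251 cells was sequenced as paired reads from TruSeq libraries, and the authors deposited 1 table of TPM values per line. The study names FastQC, Trim Galore, STAR and featureCounts with GRCh38; the strand setting and the step that made TPM from counts are not given in the sources used here. A supplementary sheet of the study calls the matrices CPM. In these values, however, the smallest value above 0 of a low gene fell with its exon length (Spearman -0.811 over 15834 genes in U87 and -0.835 over 16403 in U251, GENCODE release 44), as values scaled for length do. Each library sums to 1000000 TPM, so the read count of a library cannot be read from it and no counting interval is given; the study states a minimum depth for all libraries. Of 30 library columns, 2 in the U87 table carried the same name, could not be assigned and were left out, leaving 28. The study describes triplicates as independent.

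Testing took genes whose mean over a line's libraries reached 0.5 TPM, using limma 3.58.1 (R 4.3.3, trend, 5 groups in 1 fit, no block) on log2(TPM + 1), with Benjamini-Hochberg adjustment over all genes of a comparison. The pseudocount understates the change of low genes. The tables were processed separately, so the lines were not compared in a test. The script was tested on simulated data. Ligand ratios, log2((A + 1)/(B + 1)), were tested by exact permutation of libraries between treated groups, one-sided for a large F. Examples from a gene list were its most abundant genes, and genes outside that rule, such as BATF2, JAK2, SOCS1, USP18, PTPN6, TNFAIP3, CCL8 of U87, ACKR1, NAAA and PPEF2, were named after their values were seen. The members and lists were chosen with earlier results of these data known. The alternatives were another pseudocount, filter, scaling or call rule, fits of 2 groups, the replicate block and leaving out each library. Same-numbered libraries did not deviate together, with correlations of their deviations from -0.058 to 0.047 over 23 pairs in U87 and from -0.037 to 0.048 over 30 pairs in U251. Some genes of the lists count in the totals and are not reported here by name.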

Additional observations from a re-analysis of the deposited data

Results flagged for a closer look

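Between D3 and D28WO the ligands differed in opposite directions in the 2 lines. Every D28WO library lay above every D3 library in U87, as for 24.4% of genes tested, and below in U251, as for 22% of genes. CXCL9 was 0.75 higher at D28WO on the log2(TPM + 1) scale in U87 and differed by -2.43 in U251. CXCL10 was 1.25 higher in U87 and differed by -1.39 in U251. CXCL11 was 0.88 higher in U87 and differed by -2.92 in U251. The difference between the lines was not tested, since their tables were processed separately, and in U87 CXCL9 and CXCL11 were not called, while the call of CXCL10 was lost without D3 replicate 2 (0.956, limma, adjusted p = 0.0688).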

How the results depend on the processing

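Of 837 alternative values for 57 ligand comparisons, 816 kept their direction and their side of the limits. With a pseudocount of 0.1, CXCL9 was called higher at D28 in U87 against Untreated and D14 (3.21 for each) and at D14 in U251 against Untreated (2.31), while U251 calls were lost for CXCL9 (1.04) and CXCL10 (1.10) from D3 to D28 and for CXCL10 at D28WO against D3 (-1.40) and D14 (1.30). With quantile normalization, CXCL9 at D28WO in U87 was not called against Untreated (0.91) or D14 (0.91). Fits of only 2 groups lost CXCL10 (-3.22) and CXCL11 (-2.67) from D3 to D14 in U87 and CXCL9 (1.03) from D3 to D28 in U251; they had fewer samples. With the adjusted p alone, CXCL9 at D28 in U87 (0.88) and CXCL11 from D3 to D28 in U251 (0.87) were called. With a filter at 1 TPM, CXCL9 was not tested in U87. For the remaining changes the cause was not tested.

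Leaving out 1 library, the U251 differences from D3 to D28 ranged from 0.75 to 1.28 for CXCL9, from 0.90 to 1.25 for CXCL10 and from 0.73 to 1.00 for CXCL11. The U87 differences from D3 to D28WO ranged from 0.96 to 1.55 for CXCL10 and from 0.75 to 1.12 for CXCL11, and that of CXCL11 from D28 to D28WO from -0.23 to 0.12, turning at 0.12 without D28WO replicate 3. The IFN-γ signaling, feedback, NF-κB and 3 chemokine lists (ELR CXC, other CXC and CX3C, CC) together had 2 genes called higher at D14 in U87, PTPN6 and CXCL2, and 1 under quantile or median-ratio scaling. The replicate block changed no ligand call and, against Untreated, no list count in U251. In U87 it moved the counts called higher from 1 to 0 for feedback at D14 (PTPN6) and for leukocyte markers at D3 and D14 (NKG7), from 0 to 1 at D14 and from 2 to 1 at D28WO for the other CXC and CX3C chemokines, from 2 to 3 for NF-κB at D3, from 6 to 5 at D3 and from 5 to 4 at D28 for CC chemokines, and from 2 to 1 for glial markers at D28. No ratio test changed its side of the threshold. TPM gives no depth, so low values, such as CXCL9 in U87, carry an unknown counting error.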

Other observations

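Among glial and endothelial markers of U251, GFAP and CDH5 were lowest where the ligands were high. GFAP, the astrocyte filament gene, averaged 1258 TPM in Untreated, 713 at D14 and 573 at D28WO, against 342 at D3 and 243 at D28, and was called lower than Untreated at D3, D28 and D28WO, by -1.88, -2.37 and -1.13 on the log2 scale (limma, adjusted p = 2.03e-09, 1.71e-10 and 5.5e-07), the last call being lost with quantile normalization (-0.88). CDH5, an endothelial cadherin gene, averaged 27.6 TPM in Untreated and 0.565, 11.5, 1.26 and 2.25 TPM in the treated groups in time order, D28WO last. It was called lower at each time, by -4.19, -1.25, -3.70 and -3.19 (limma, adjusted p = 1.84e-07, 0.0119, 5.65e-07 and 4.26e-06). It was the 1 of 3 endothelial markers called lower, and PECAM1 averaged 0.659 TPM in Untreated and 2.04 TPM at D28. Of 6 glial and glioma markers tested in U251, 3 were called lower at D3 and D28WO and 2 at D28, and limma called 0 at D14, where 5 had an adjusted p under 0.05. With median-ratio size factors 4 were called lower at D3 and at D28, and with quantile normalization 2 at D28WO. The endothelial count at D28 became 2 with quantile normalization. Of 8 housekeeping genes in U251, limma called 0 lower at these times. By the adjusted p alone, 7, 3, 7 and 6 were lower at D3, D14, D28 and D28WO. The share of all genes called lower than Untreated in U251 is not given, so the counts called lower are not set against it.

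Chemokines of the remaining CXC and CX3C list, 4 of 5 tested in each line, had 2 called higher at D28 and 2 at D28WO in U87. The latter became 1 under quantile and under median-ratio scaling. In U251, 1, 1, 2 and 1 were called higher from D3 to D28WO. At D28WO in U87, 1 chemokine of the list was called lower, when 485 of 22918 genes were. In U251, 1 of the list was called lower at D3 and at D28WO. At D3 and D14 of U87 limma called 0 of them, with 2 and 3 at an unadjusted p under 0.05. IFNL1, a type III interferon gene, was listed at 0 in Untreated U251 libraries and stood at 2.23, 1.91 and 3.53 TPM at D28 (limma, called, adjusted p = 0.00241). It passed the limit of 0.5 TPM for testing through the D28 libraries, so this call is not independent of that limit.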
